A study of Mus musculus with 6 samples.

Results

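Rpph1 and Rmrp, the RNA components of the enzymes RNase P and RNase MRP, were followed through 6 sequencing libraries of chromatin-bound RNA. The libraries came from MEL cells, a mouse erythroleukemia line labelled with the strain C57BL/6, and the deposited values were read counts over assembled transcript models. Models were kept when they covered the span of Rpph1 or Rmrp in the mouse annotation or lay in it by at least 50% of their bases, which left 3 of 7959 models, 2 over Rpph1 and 1 over Rmrp. The genes were not chosen by their values in these libraries, although earlier results of the same data were known.

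Cells of all groups were grown in roller bottles and crosslinked with 3.7% formaldehyde for 30 minutes. In the first group, chromatin was captured by PI-PRICh, a method whose probe, TH59-DB, is a pyrrole-imidazole polyamide made to bind telomeric DNA. In the second, masked TH59-DB took its place as the negative control probe. The third was the input chromatin before capture. Each group held 2 libraries, of which the labels number only the second, and the unnumbered one is called library 1 here. The labels do not state whether a group's libraries are from independent cultures, so p-values measure only the spread between these libraries, which may be technical.

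RNase P is a ribonucleoprotein that removes the 5′ leader from precursor transfer RNAs, and its RNA subunit, encoded by Rpph1, carries the catalytic activity. RNase MRP is built from a related RNA, encoded by Rmrp, and shares most of its protein subunits with RNase P. RNase MRP is known for cleaving precursor ribosomal RNA in the nucleolus, and both RNAs are transcribed by RNA polymerase III from promoters that lie upstream of the gene. In human cells, the RNase MRP RNA has also been found bound to the catalytic subunit of telomerase.

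The spans of both genes lie close to the start of a protein-coding gene, and the reference holds sequence between them. Rpph1 occupies chr14:50807447-50807771 (325 bases) in GRCm38.p6, the assembly of the mm10 build, and Parp2, which encodes a poly(ADP-ribose) polymerase, begins 125 bases beyond it at 50807897. Parp2 and the RNase P RNA gene of the mouse are known to lie head to head, with their promoter region between them. Rmrp occupies chr4:43492785-43493059 (275 bases), and Ccdc107 begins 280 bases beyond it at 43493340. The RefSeq windows ahead of both neighbours are shown because they hold the DNA next to the transcribed RNAs in a capture aimed at telomeric DNA. Both are on the plus strand, 5′ to 3′, and end at the base before the neighbouring gene. Capitals mark each match to TTAGGG (the telomere repeat unit), TATAA (the core of a TATA box) or ATTTGCAT (the octamer bound by POU factors), searched on both strands. The Parp2 window is chr14:50807666-50807896, of 231 bases, and its first 106 bases lie within the Rpph1 span. The Ccdc107 window is chr4:43493115-43493339, of 225 bases, and starts 55 bases beyond the Rmrp span.
Parp2 window: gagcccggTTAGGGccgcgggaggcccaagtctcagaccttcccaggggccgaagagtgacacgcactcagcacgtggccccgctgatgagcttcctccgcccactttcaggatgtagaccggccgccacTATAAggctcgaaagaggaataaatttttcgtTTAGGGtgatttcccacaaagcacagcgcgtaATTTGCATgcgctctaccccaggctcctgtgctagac
Ccdc107 window: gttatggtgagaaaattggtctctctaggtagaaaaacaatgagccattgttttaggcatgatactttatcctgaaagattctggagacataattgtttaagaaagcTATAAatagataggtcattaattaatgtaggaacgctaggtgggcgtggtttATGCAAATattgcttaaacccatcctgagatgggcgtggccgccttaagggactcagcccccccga

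The Parp2 window had 58.0% G and C and held TTAGGG at 2 places, one inside the Rpph1 span and one 56 bases beyond its end. It also held TATAA 24 bases and ATTTGCAT 88 bases beyond the Rpph1 end. The Ccdc107 window had 41.3% G and C, with TATAA 162 bases beyond the Rmrp end and the octamer, on the opposite strand, 214 bases beyond it. No TTAGGG stood in the Ccdc107 window. Among 32851 RefSeq promoter windows of 300 bases, 10.6% held TTAGGG, 24.9% held TATAA and 1.74% held ATTTGCAT on either strand. A single TTAGGG or TATAA is thus common in such windows, which are longer than the 2 shown. The share that held TTAGGG at 2 places was not counted. These matches describe the letters only, and binding of the probe or of a factor was not measured here.

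The main Rpph1 model covered 91.7% of the gene, with 298 bases in 2 exons, at 50807450 to 50807557 and 50807579 to 50807768. A gap of 21 bases separated these exons, and 3 bases were missing at each end of the gene. The main model was drawn on the plus strand, that of Parp2, and is thus antisense to an Rpph1 lying head to head with Parp2. The second Rpph1 model had 218 bases and was drawn on the minus strand. Its first exon ran from 50807563 to 50807766 and shared 188 bases with the main model, and its second exon of 14 bases lay 28.8 kb away, in the spans of Tep1 and Gm52116. The read counts of this second model were 97.3% to 99.7% of those of the main model in every library, a difference of 26 to 174 reads. Nearly the same reads were therefore counted in both models, their strands could not be told apart, and the 298-base model stands for Rpph1 below. The single Rmrp model, of 455 bases at 43492612 to 43493066, covered 100% of the gene and ran 173 bases past it on the low side and 7 bases on the high side. Only 60.4% of its bases lay in the gene, so its level per kilobase is spread over more sequence than the annotated RNA.

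**Figure D1:**
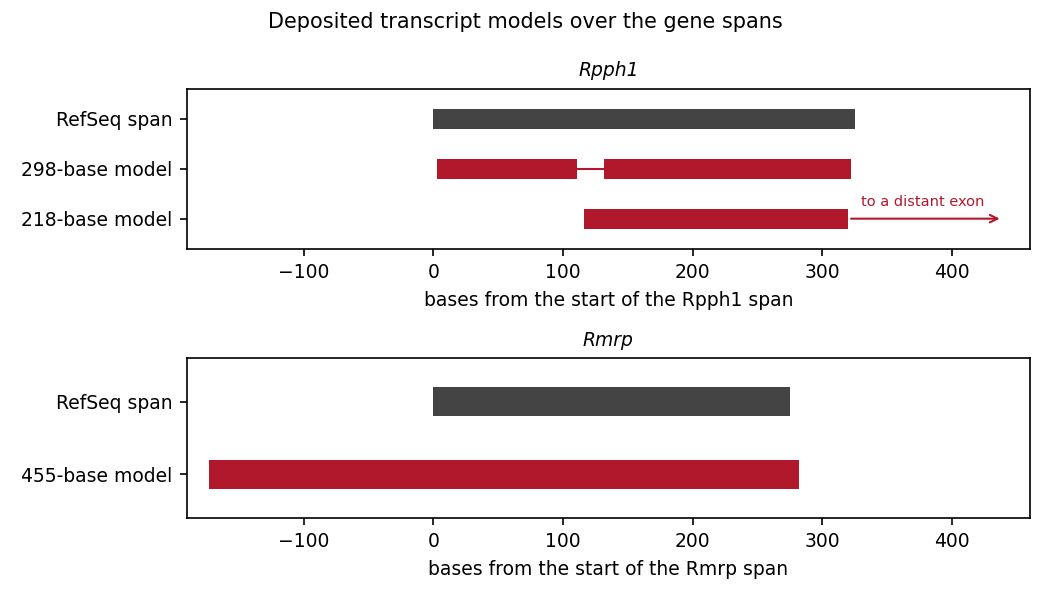
Deposited transcript models (red) over the RefSeq spans (grey) of Rpph1, above, and Rmrp, below, with distance in bases from the start of each span on the horizontal axis. The 298-base model fills most of the Rpph1 span with a gap of 21 bases, the 218-base model overlaps it and joins a distant exon, and the Rmrp model runs 173 bases past its span on the low side.

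Library totals were 1803723 and 2589100 reads for TH59-DB, 1970838 and 3122558 for masked TH59-DB, and 2985229 and 2854992 for the input. The summed counts of all models came to 35.7% to 69.2% of these totals. Overlapping models can hold the same reads, so this is not the share of reads that fell in models. CPM values below are reads per 1000000 of these totals. A 414-base model inside Zc3h7a took up 20.8% and 2.77% of the TH59-DB libraries, 50.8% and 13.4% of the masked TH59-DB libraries, and 14.1% and 14.3% of the input, so masked TH59-DB 1 stood apart on the high side and TH59-DB 2 on the low side. Every model had at least 5 reads in TH59-DB 1, while 1404 to 4341 models had 0 reads in each of the other 5 libraries, which bears on every comparison with TH59-DB. The telomerase RNA Terc, a telomere-linked RNA set beside the capture, had 31330 and 13957 CPM in TH59-DB, against 77.1 and 47.7 CPM in masked TH59-DB and 33.5 and 23.8 CPM in the input. Of 16 erythroid marker genes 8 had a model, and some had several. With only the model of highest mean CPM taken for each gene, their summed level was 177 to 254 CPM in TH59-DB. It was 247 to 559 CPM in masked TH59-DB and 457 to 606 CPM in the input. The globin genes, Alas2, Slc4a1 and Tal1 were among the 8 with no model analysed here. Of 12 markers of other blood cells 2 had a model, summing in the same way to at most 31.5 CPM in any library.

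Rpph1 was one of the most abundant RNAs in every library, and its level was several-fold higher in the TH59-DB libraries than in the other groups, a difference that did not pass the adjusted threshold. The Rpph1 counts were 34413 and 29349 reads in TH59-DB, against 4576 and 7323 in masked TH59-DB, with 6540 and 9555 in the input. As levels these were 19079 and 11336 CPM in TH59-DB, 2322 and 2345 CPM in masked TH59-DB, and 2191 and 3347 CPM in the input. The groups are captured or input chromatin of pooled cells, so differences between them do not measure RNA per cell or the number of cells holding it. Both TH59-DB libraries were above all 4 others, and the input libraries lay on either side of the masked TH59-DB pair, which were almost equal.

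Rpph1 held 1.52% ± 0.548 of the reads in TH59-DB, 0.233% ± 0.00165 in masked TH59-DB and 0.277% ± 0.0817 in the input (SD, n = 2 each). Counting error was smaller than the spread in TH59-DB and the input, and larger than that between the masked TH59-DB libraries. The share in TH59-DB 1 was 1.91% with a 95% exact binomial interval of 1.89% to 1.93%, against 0.232% (0.226% to 0.239%) in masked TH59-DB 1 and 0.219% (0.214% to 0.224%) in input 1, and such intervals cover counting error only. Ranked by CPM among the 7959 models, Rpph1 stood 4th and 5th in TH59-DB, 8th and 10th in masked TH59-DB, and 16th and 7th in the input.

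Rmrp was far less abundant and its groups lay closer together. The Rmrp counts were 1490 and 1005 reads for TH59-DB, 422 and 1172 for masked TH59-DB, and 2022 and 1225 for the input. The levels were 826 and 388 CPM in TH59-DB, 214 and 375 CPM in masked TH59-DB, and 677 and 429 CPM in the input. The lower TH59-DB library was only just above the higher masked TH59-DB library, and the TH59-DB pair spanned the input pair completely. The masked TH59-DB libraries were the lowest for Rmrp, below both input libraries.

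Group levels of Rmrp were 607 ± 310 CPM in TH59-DB, 295 ± 114 CPM in masked TH59-DB and 553 ± 176 CPM in the input (SD, n = 2 each). Rmrp ranked 41st and 83rd of 7959 in TH59-DB, 60th and 59th in masked TH59-DB, and 34th and 46th in the input. In reads per kilobase of model and per 1000000 reads of the total, the level of Rmrp was 1334 ± 681 in TH59-DB, 648 ± 251 in masked TH59-DB and 1216 ± 386 in the input. On the same scale Rpph1 had a level of 51031 ± 18374 in TH59-DB, 7831 ± 55.4 in masked TH59-DB and 9291 ± 2743 in the input. Rpph1 was the higher of the pair in all 6 libraries on both scales.

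**Figure D2:**
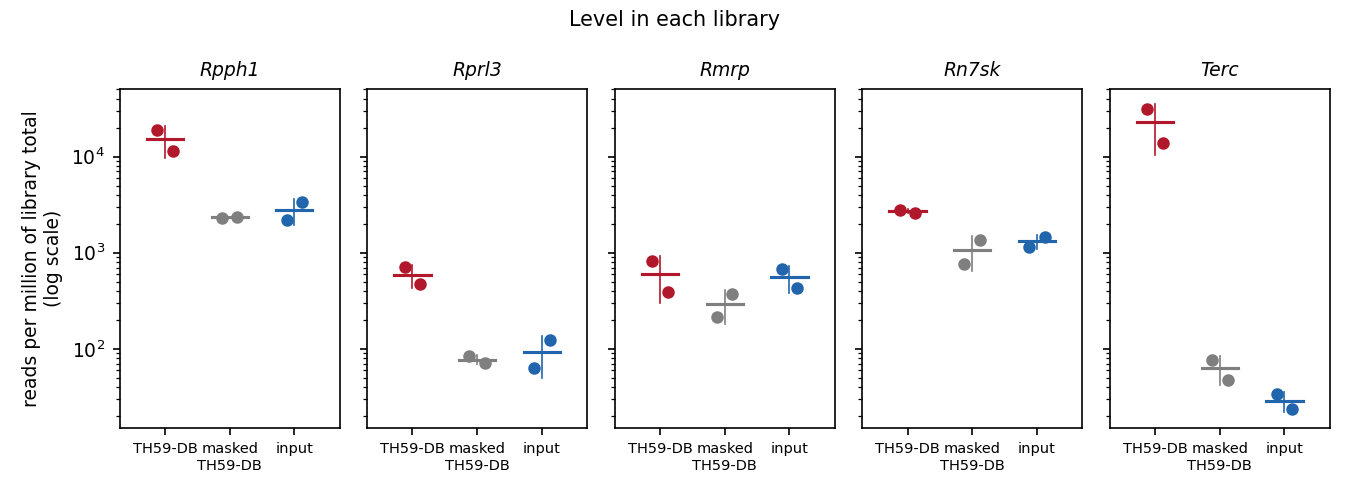
Level of Rpph1, Rprl3, Rmrp, Rn7sk and Terc in reads per 1000000 of the library total (CPM), on a log axis, in TH59-DB, masked TH59-DB and input libraries. Points are the 2 libraries of a group, horizontal bars their mean and vertical lines the SD. The TH59-DB points of Rpph1, Rprl3, Rn7sk and Terc lie above all other points of the same panel, as for 11.8% of tested models. Those of Rmrp span the input points.

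Setting TH59-DB against masked TH59-DB shows what the telomere probe recovered beyond its negative control. The mean Rpph1 level was 6.52 times as high in TH59-DB as in masked TH59-DB, and the same-numbered libraries gave ratios of 8.22 and 4.83. The log2 fold change of Rpph1 was 2.83 (SE 1.05), with an unadjusted p = 0.0208 and an adjusted p = 0.314 in edgeR's quasi-likelihood test, adjusted by Benjamini-Hochberg over 5385 models. The difference was thus higher in both libraries but did not pass the threshold of 0.05 after adjustment. In this comparison 1.41% of the tested models passed with higher values in TH59-DB, 0% with lower values, and 8.26% were higher and 1.69% lower at an unadjusted p under 0.05. The Rpph1 fold change ranked 540th of 5385, with 10.0% of models above it, beside a median log2 fold change of 0.30 over all models.

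Rmrp had a mean level 2.06 times as high in TH59-DB as in masked TH59-DB, with same-numbered ratios of 3.86 and 1.03. The libraries numbered 2 thus hardly differed for Rmrp, and among those numbered 1 was masked TH59-DB 1, of which the Zc3h7a model held 50.8%. The part of that model in the Rmrp difference was not tested beyond the denominators given below. The Rmrp log2 fold change was 1.20 (SE 0.801), with an adjusted p = 0.790 in edgeR's test, and 26.5% of models had a higher one. Both Rpph1 and Rmrp had their 2 TH59-DB libraries above both masked TH59-DB libraries in CPM, as did 16.1% of all tested models. The common biological coefficient of variation in this fit was 0.702, and the spread used for each model was its own estimate, drawn towards that of all models. The SE of Rpph1 therefore does not measure the spread between its own libraries alone.

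Levels depended on what the reads were divided by. With the reads of all models except the 2 largest as the denominator, Rpph1 had 66113 and 39736 reads per 1000000 in TH59-DB, against 20535 and 10792 in masked TH59-DB, with 7566 and 14372 in the input. The ratio of TH59-DB to masked TH59-DB for Rpph1 was then 3.38, with both TH59-DB libraries still above both masked TH59-DB libraries. Rmrp on this scale had 2863 and 1361 reads per 1000000 for TH59-DB, 1894 and 1727 for masked TH59-DB, and 2339 and 1843 for the input. Its groups then overlapped, with a ratio of TH59-DB to masked TH59-DB of 1.17.

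On the normalised scale that the test used, which divides by library totals multiplied by TMM factors, Rpph1 had 14355 and 16645 reads per 1000000 in TH59-DB, against 2602 and 1749 in masked TH59-DB, with 2838 and 2797 in the input. The spread between the TH59-DB libraries was narrower here than in CPM, and TH59-DB 2 was the higher of the pair. Rmrp had 622 and 570 reads per 1000000 for TH59-DB, 240 and 280 for masked TH59-DB, and 877 and 359 for the input. The TH59-DB libraries of Rmrp lay between the input libraries, of which input 1 was the highest of all 6.

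Set against the input, the comparison asks which RNAs were enriched over the chromatin RNA before capture. The mean Rpph1 level was 5.49 times as high in TH59-DB as in the input, and the same-numbered ratios were 8.71 and 3.39. The log2 fold change of Rpph1 over the input was 2.46 (SE 1.03), with an unadjusted p = 0.0366 and an adjusted p = 0.299 in edgeR's test. In this comparison 3.58% of the models passed with higher values in TH59-DB and 0.0371% with lower values, and 8.86% were higher and 5.14% lower at an unadjusted p under 0.05. The Rpph1 value ranked 667th of 5385, with 12.4% of models above it. Rpph1 had both TH59-DB libraries above both input libraries, as did 22.5% of models, and it was among the 11.8% of models whose TH59-DB libraries were above all 4 others.

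Rmrp did not separate from the input. Its mean level was 1.10 times as high in TH59-DB as in the input, with same-numbered ratios of 1.22 and 0.905. The log2 fold change of Rmrp was -0.053 (SE 0.790), with an adjusted p = 0.991 in edgeR's test, beside a median of 0.031 over all models. Its sign turned with the scaling, to 0.33 with DESeq2 size factors and 0.13 with the library totals alone.

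Masked TH59-DB against the input compares what the control probe recovered with the chromatin RNA before capture. The mean Rpph1 level in masked TH59-DB was 0.843 of that in the input, with same-numbered ratios of 1.06 and 0.701. The edgeR log2 fold change of Rpph1 was -0.37 (SE 0.979), with an adjusted p = 0.971, and it turned to 0.22 without masked TH59-DB 2. The mean Rmrp level in masked TH59-DB was 0.533 of that in the input, with same-numbered ratios of 0.316 and 0.875. The log2 fold change of Rmrp was -1.25 (SE 0.802, adjusted p = 0.838 in edgeR's test), and it was -0.32 without input 1. In this comparison 0.26% of models passed with higher values in masked TH59-DB and 0% with lower values, while 3.86% were higher and 2.95% lower at an unadjusted p under 0.05. Both masked TH59-DB libraries lay below both input libraries for Rmrp, as they did for 14.4% of models, and for Rpph1 the groups overlapped. Without the 2 largest models in the denominator, the groups overlapped for Rmrp too, with a ratio of masked TH59-DB to the input of 0.866, and the ratio for Rpph1 was 1.43.

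The 3 comparisons share libraries in pairs, so their values are not independent. The second Rpph1 model, which counts nearly the same reads, had log2 fold changes of 2.84 for TH59-DB over masked TH59-DB, 2.48 for TH59-DB over the input and -0.36 for masked TH59-DB over the input. Its adjusted p-values in edgeR's test were 0.314, 0.295 and 0.974 in that order, so the choice of model changed no call.

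**Figure D3:**
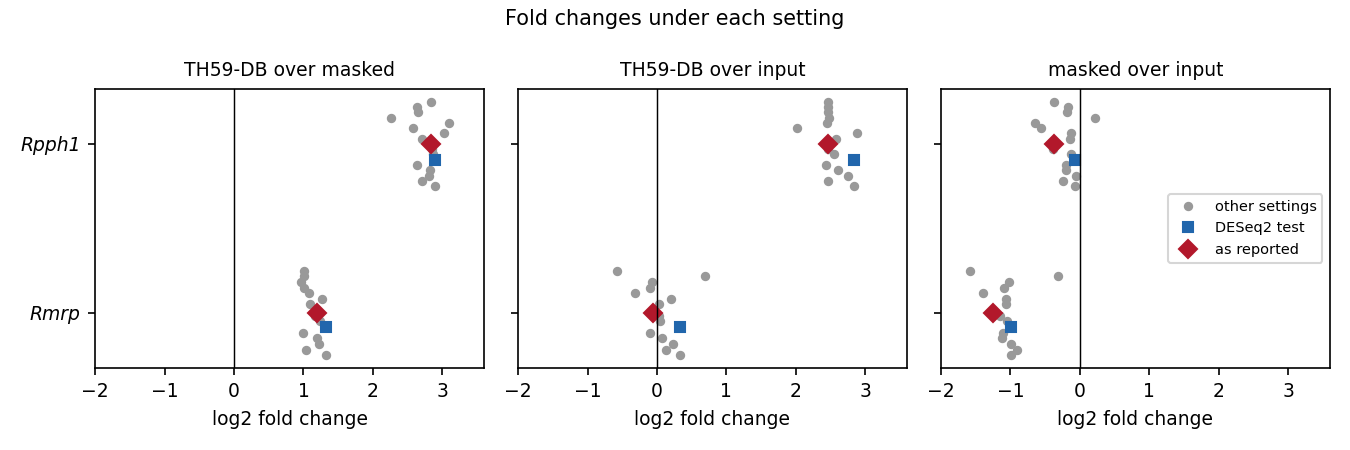
The log2 fold changes of Rpph1 and Rmrp in the 3 comparisons as reported (diamonds), under the DESeq2 test (squares) and under the other settings (grey points, offset vertically for clarity). The Rpph1 values stay between 2.26 and 3.09 for TH59-DB over masked TH59-DB and between 2.02 and 2.89 for TH59-DB over the input, while those of Rmrp over the input lie on both sides of 0.

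The method used decided whether Rpph1 passed. DESeq2's test on the same models gave Rpph1 a log2 fold change of 2.90 with an adjusted p = 3.36e-04 for TH59-DB over masked TH59-DB, and 2.83 with an adjusted p = 3.3e-04 for TH59-DB over the input. That test called 4.92% of models higher over masked TH59-DB and 6.78% higher over the input, so more of the whole table passed by it as well. Leaving out any one library kept the edgeR log2 fold change of Rpph1 between 2.26 and 3.09 over masked TH59-DB and between 2.02 and 2.89 over the input, and it passed in none of these fits.

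The ratio of Rpph1 to Rmrp within a library does not depend on the library total. In reads per kilobase of model, this ratio was 35.3 and 44.6 in TH59-DB, against 16.6 and 9.54 in masked TH59-DB, with 4.94 and 11.9 in the input. The ratios in TH59-DB were above all others, and those in masked TH59-DB overlapped with the input. The mean log2 ratio was 1.66 higher in TH59-DB than in masked TH59-DB (SE 0.432), a 3.16-fold difference, and 2.37 higher than in the input (SE 0.657), a 5.17-fold difference. Exact two-sided permutation tests gave p = 0.333 for both, which is the smallest p that 2 libraries against 2 allow, and 0.5 after adjustment over the 3 comparisons. The log2 ratio was 0.71 higher in masked TH59-DB than in the input (SE 0.749), with an exact permutation p = 0.667. With the annotated gene lengths in place of the model lengths the ratios were 19.5 and 24.7 for TH59-DB, 9.18 and 5.29 for masked TH59-DB, and 2.74 and 6.60 for the input, and their differences on the log2 scale were the same by construction.

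**Figure D4:**
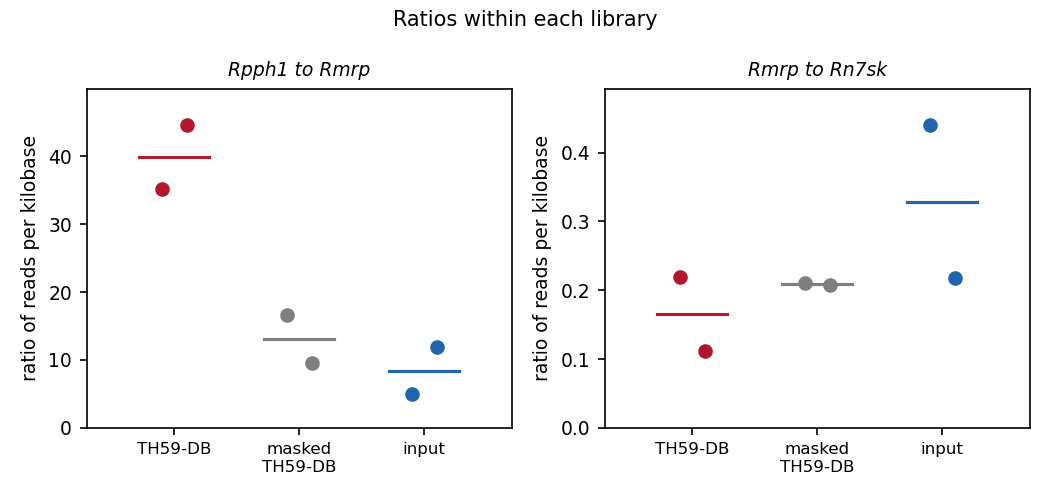
Ratio of reads per kilobase of Rpph1 to Rmrp (left) and of Rmrp to Rn7sk (right) within each library, on linear axes that start at 0. Points are libraries and bars are group means. The TH59-DB ratios of Rpph1 to Rmrp, 35.3 and 44.6, lie above all others, and the Rmrp to Rn7sk ratios of TH59-DB reach no higher than 0.220.

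Mouse DNA also holds copies of the RNase P RNA gene. RefSeq lists Rprl1 on chromosome 6, Rprl2 on chromosome 3 and Rprl3 at chr8:3803125-3803359, all typed as RNase P RNA, and of these Rprl3 had a model, of 230 bases at 3803135 to 3803364. Reads of such a copy could be split with Rpph1 in the counting, so its values are uncertain. Rprl3 had 1268 and 1234 reads in TH59-DB, against 164 and 223 in masked TH59-DB, with 187 and 351 in the input. These were 3.68% and 4.20% of the Rpph1 reads for TH59-DB, 3.58% and 3.05% for masked TH59-DB, and 2.86% and 3.67% for the input. Both shares in TH59-DB were above the other 4, the lower of them only just above the higher input share, and this difference was not tested.

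The level of Rprl3 was 703 and 477 CPM in TH59-DB, 83.2 and 71.4 CPM in masked TH59-DB, and 62.6 and 123 CPM in the input. Both TH59-DB libraries of Rprl3 were above the rest, as they were for 11.8% of tested models. The Rprl3 log2 fold change was 3.07 for TH59-DB over masked TH59-DB (SE 0.769, adjusted p = 0.0837 in edgeR's test) and 2.74 over the input (SE 0.757, adjusted p = 0.0917). Rprl3 did not pass in either comparison, and did so under several other settings, among them the DESeq2 test (adjusted p = 3.36e-04 over masked TH59-DB and 2.35e-04 over the input). It also passed without TH59-DB 1 (adjusted p = 0.0290 and 0.0258 in edgeR's test), a fit in which the 1 TH59-DB library left is assumed to vary like the other groups. Adding the Rprl3 reads to Rpph1, a choice made after seeing the data, gave log2 fold changes of 2.84, 2.47 and -0.37 for the 3 comparisons in the order above, and 0 of them passed, with adjusted p-values of 0.318, 0.303 and 0.973.

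Other small RNAs made by polymerase III from upstream promoters gave a scale for both members of the pair. Rn7sk, the RNA that holds the elongation factor P-TEFb inactive, had 2815 and 2615 CPM in TH59-DB, 765 and 1358 CPM in masked TH59-DB, and 1154 and 1474 CPM in the input. Both TH59-DB libraries were above the rest for Rn7sk, as they were for 11.8% of tested models. Its log2 fold changes of 1.67 over masked TH59-DB and 1.13 over the input did not pass, with adjusted p = 0.679 and 0.714 in edgeR's test. Per kilobase, the ratio of Rpph1 to Rn7sk was 7.76 and 4.96 in TH59-DB, against 3.47 and 1.98 in masked TH59-DB, with 2.17 and 2.60 in the input. The ratio of Rmrp to Rn7sk was 0.220 and 0.111 for TH59-DB, 0.210 and 0.207 for masked TH59-DB, and 0.440 and 0.218 for the input. The Rpph1 ratios in TH59-DB were above all others, whereas Rmrp relative to Rn7sk was highest in input 1.

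Of the 7 genes listed in this class, which includes Rpph1 and Rmrp, 5 had a tested model and 0 passed in any comparison. All 5 had positive log2 fold changes for TH59-DB over masked TH59-DB, with a median of 1.61, beside 0.30 over all models. Over the input 2 were positive and 3 negative, with a median of -0.053 beside 0.031 over all models. For masked TH59-DB over the input all 5 were negative, with a median of -1.25 beside -0.26 over all models. By the signs of the medians over all models, most models were also positive in the first comparison and negative in this one. The exact shares were not counted, so the shared signs are no result about the class. The Y RNAs, components of Ro particles, were at low levels. Rny1 had 21 and 24 reads in TH59-DB, against 9 and 10 in masked TH59-DB, with 139 and 7 in the input, and Rny3 had 24 and 12 reads for TH59-DB, 15 and 20 for masked TH59-DB, and 373 and 23 for the input. Input 1 thus stood far above the other libraries for both Y RNAs. Vaultrc5, an RNA of the vault particle and the 1 of 6 other small polymerase III RNAs with a model, had 68 and 17 reads in TH59-DB, against 0 and 28 in masked TH59-DB, with 87 and 64 in the input, and passed in no comparison.

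**Figure D5:**
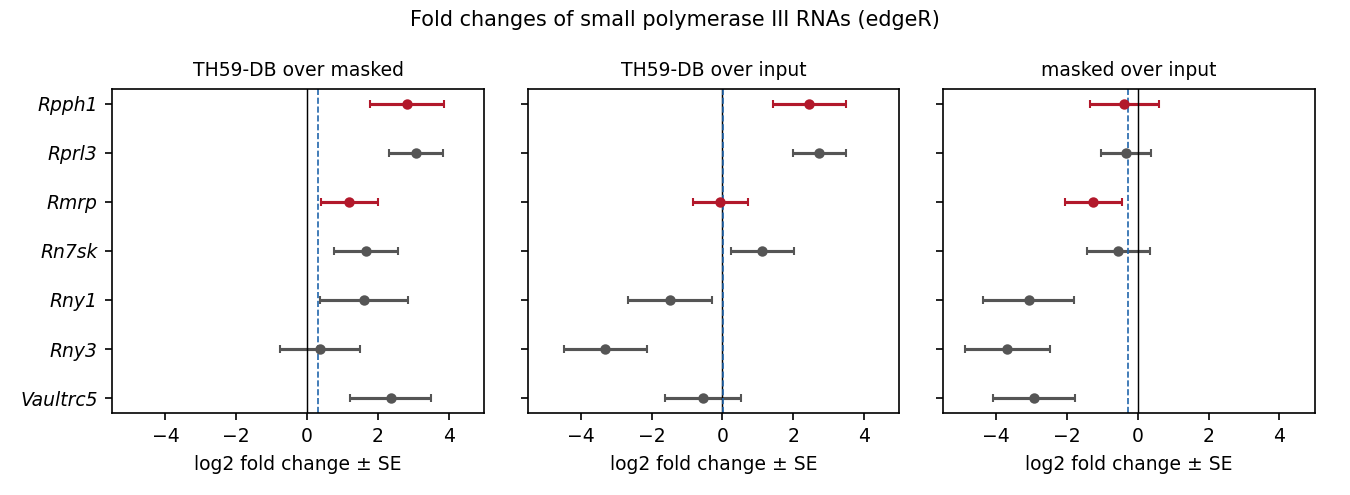
The log2 fold changes of small polymerase III RNAs with their SE, derived from the F statistic of edgeR's test, for TH59-DB over masked TH59-DB, TH59-DB over the input and masked TH59-DB over the input. Red marks Rpph1 and Rmrp, and the dashed line is the median of all 5385 models. Rpph1 and Rprl3 lie to the right of the dashed line in both comparisons of TH59-DB, while Rmrp sits close to it over the input.

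Set beside Terc, the RNA template of telomerase, Rpph1 was much the more abundant except in the TH59-DB libraries. The ratio of Rpph1 to Terc in reads per kilobase was 0.993 and 1.32 for TH59-DB, 49.1 and 80.2 for masked TH59-DB, and 107 and 229 for the input. Terc had log2 fold changes of 8.50 over masked TH59-DB (adjusted p = 0.0248 in edgeR's test) and 9.44 over the input (adjusted p = 0.00429). Without masked TH59-DB 1 the log2 fold change over masked TH59-DB was 9.18 (adjusted p = 0.0901), and without masked TH59-DB 2 it was 7.63 (adjusted p = 0.0519), so the call was lost at a similar size, with a single masked TH59-DB library left that is assumed to vary like the other groups. Rpph1 was thus near the level of Terc in TH59-DB, per kilobase, while its log2 fold change over masked TH59-DB was 2.83 and did not pass. Of 10 genes listed for telomerase, the other one with a model was Nhp2, a protein of H/ACA particles, with log2 fold changes of -0.015 over masked TH59-DB and -1.12 over the input, and it did not pass.

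For the protein partners, 0 of 11 subunits of RNase P and RNase MRP, among them Pop1, Rpp30 and Rpp38, had a model analysed here, so the messenger RNAs that encode the enzyme's proteins gave no value. Of 20 genes for mitochondrial RNase P and transfer RNA maturation, 6 were tested and 0 passed. Medians over all models were 0.30 over masked TH59-DB, 0.031 over the input and -0.26 for masked TH59-DB over the input. For these 6 genes the medians were -0.24, -0.96 and -0.073 in that order. The most counted model used for them was 1 of 2 models of Ssb, which encodes the La protein that binds the 3′ ends of polymerase III transcripts. This Ssb model had 23 and 41 reads in TH59-DB, against 5 and 131 in masked TH59-DB, with 102 and 107 in the input. Its log2 fold change over the input was -1.21 with an adjusted p = 0.710 in edgeR's test.

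Of 22 genes for polymerase III and its upstream-promoter factors, 7 had a model, 5 were tested and 0 passed. Among the models used, the largest count summed over the 6 libraries belonged to 1 of 3 models of Brf1, a subunit of the initiation factor TFIIIB. It had 113 and 55 reads for TH59-DB, 119 and 153 for masked TH59-DB, and 62 and 105 for the input. Of 12 genes that take part in ribosomal RNA processing, the pathway in which RNase MRP acts, 7 were tested and 0 passed. Their medians were -0.27 over masked TH59-DB, -0.75 over the input and -0.66 for masked TH59-DB over the input. The medians over all models were 0.30, 0.031 and -0.26 in that order. All 7 genes had negative values over the input, from -0.25 for Utp14a to -1.37 for Wdr12. The share of all models with negative values was not counted. The most counted model used for the 7 genes was 1 of 5 models of Ncl, which encodes nucleolin. It had 588 and 769 reads in TH59-DB, against 630 and 2471 in masked TH59-DB, with 1475 and 1940 in the input.

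The neighbouring genes gave few reads or none to compare. Parp2, next to Rpph1, and Ccdc107 and Sit1, on either side of Rmrp, had no model analysed here. Ccnb1ip1, 11718 bases on the low side of Rpph1, had 16 and 10 reads for TH59-DB, 0 and 31 for masked TH59-DB, and 7 and 6 for the input. Per library total, the TH59-DB values of Ccnb1ip1 lay between the masked TH59-DB values and above both input values, all at low counts.

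The genes most like each RNA were found as the root mean square difference between log2(CPM + 1) profiles over the 6 libraries, each centred on its own mean, among 4871 tested models in gene spans. The 5 nearest to Rpph1 were 1700028E10Rik at 0.139, Rprl3 at 0.179, Nol4l at 0.213, Sectm1a at 0.215 and Kcnma1 at 0.225. Apart from Rprl3, these models had 10 to 19 reads in each TH59-DB library and at most 3 in any other library. They passed the low-count filter only through TH59-DB, and at such counts the 1 added to CPM largely sets their profiles. Their closeness to Rpph1 is therefore no measure of a shared pattern. Among the nearest to Rmrp were Gid8 at 0.262, Tpm3-rs7 at 0.273, Cxxc1 at 0.274 and Ric1 at 0.286. These 4 had 2 to 14 reads per library, where the added 1 weighs as well. Rpph1 and Rmrp differed from each other by 1.09 on this measure, so neither was among the nearest of the other.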

How the data were processed

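RNA from 6 libraries was analysed from deposited tables that hold counts (whole reads per transcript model) and FPKM values made by the authors. Per the submitters' processing notes, cutadapt, HISAT2, Cufflinks, featureCounts and the build mm10 were used, with no role or version given. Per the labels, the libraries are stranded and from total RNA (SMARTer kit). The strand setting of the counting is not given in the sources used here. Library totals were recovered from the deposited counts and FPKM, and what they count is not stated. Tables of libraries 1 and 2 were joined on all exons (7695 models) or on first start and length (264), with 0 unmatched. Genes came from the RefSeq table of GRCm38.p6, and promoter windows from RefSeq on the same assembly.

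Counts were tested with edgeR 4.0.16 in R 4.3.3 (robust quasi-likelihood, TMM on the totals, filterByExpr, a group term over all 6 libraries, Benjamini-Hochberg over 5385 models, threshold 0.05), after the code was tested on simulated data. DESeq2 1.42.0, other scalings, no filter, no robust estimation, single comparisons, the replicate block, sums per gene and leaving out each library were alternatives. One read was worth 0.320 to 0.554 CPM. The SE of an edgeR log2 fold change was its absolute value divided by the square root of the test's F statistic. A listed gene with several models was represented by the model with the highest mean CPM over the 6 libraries. Its other models do not enter the list counts, medians and sums. Genes were named as the members, the listed genes, the nearest gene on each side, Terc and the 5 closest profiles, of which 1 is not reported here. The genes and lists were chosen with earlier results of these data known.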

Additional observations from a re-analysis of the deposited data

How the results depend on the processing

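Each group had 2 libraries, all libraries but TH59-DB 1 had 1404 to 4341 models at 0 reads, and the cause of each shift below was not tested. The Rpph1 log2 fold changes kept their direction in both comparisons of TH59-DB under every alternative run, and their adjusted p-values ran from 3.36e-04 to 0.644 over masked TH59-DB and from 3.3e-04 to 1.00 over the input. Only the DESeq2 test passed the threshold, with 2.90 over masked TH59-DB and 2.83 over the input. Leaving out 1 library at a time gave 2.26 to 3.09 and 2.02 to 2.89 in these comparisons and -0.64 to 0.22 for masked TH59-DB over the input, which turned positive without masked TH59-DB 2.

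The sign of Rmrp over the input was not stable. It was 0.33 with DESeq2 size factors, 0.13 with library totals alone, 0.24 with sums of model counts, 0.075 without the 2 largest models, 0.33 in the DESeq2 test, 0.050 with only the 2 groups compared, 0.023 with the replicate block and 0.026 with counts summed per gene, and -0.57 to 0.69 when 1 library was left out. Rmrp ran from 0.96 to 1.26 over masked TH59-DB and from -1.58 to -0.32 for masked TH59-DB over the input when 1 library was left out, and passed nowhere (adjusted p from 0.430 to 1.00). Summing per gene counts the shared Rpph1 reads in both of its models. The log2 ratio of Rpph1 to Rmrp ran from 1.26 to 2.06, from 1.74 to 3.01 and from 0.078 to 1.35 in the 3 comparisons when 1 library was left out. Rprl3 in masked TH59-DB over the input ran from -0.74 to 0.36 when 1 library was left out, turning positive without masked TH59-DB 2 (0.36) and without input 2 (0.081). Across 5 library scalings the median of all models moved from 0.083 to 0.51 for TH59-DB over masked TH59-DB, and relative to it Rpph1 was 2.36 to 2.62 and Rmrp 0.77 to 0.96. For masked TH59-DB over the input, Rpph1 relative to this median ran from -0.25 to 0.016.

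The number of models passing was 76 for TH59-DB over masked TH59-DB. It was 167 with DESeq2 size factors, 155 with library totals alone, 155 with sums of model counts, 156 without the 2 largest models, 206 with no filter, 266 in the DESeq2 test, 129 with only the 2 groups compared, 191 with the replicate block and 138 summed per gene, and 32 to 1720 when 1 library was left out, highest without masked TH59-DB 2. For TH59-DB over the input it was 195, against 312 with no filter, 393 in the DESeq2 test, 497 with only the 2 groups compared and 363 with the replicate block, and 102 to 756 when 1 library was left out. For masked TH59-DB over the input it was 14, against 57 with DESeq2 size factors, 108 with library totals alone, 50 with sums of model counts, 41 without the 2 largest models, 113 with no filter, 112 in the DESeq2 test, 106 with the replicate block, 22 with no robust estimation and 39 summed per gene, and 0 to 1413 when 1 library was left out.

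With the replicate block, Rpph1 was 2.85 (adjusted p = 0.155 in edgeR's test) over masked TH59-DB and 2.46 (0.158) over the input, and the block changed no call of Rpph1 or Rmrp. Rprl3 passed under it over masked TH59-DB (0.00669) and over the input (0.0125), and also over masked TH59-DB with library totals alone (0.0383) and over the input with DESeq2 size factors (0.0414) or sums per gene (0.0498). The labels do not state whether the numbers pair the libraries. Differences between library 2 and library 1 correlated across models at -0.00208 between TH59-DB and masked TH59-DB. The correlation was 0.0932 between TH59-DB and the input and 0.110 between masked TH59-DB and the input. Low values like these cannot exclude that same-numbered libraries were made together.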
